A study of Zea mays with 46 samples.

Results

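Among 39005 maize genes, 235 gave more RNA in silks of plants with the P1-rr allele than in silks of plants with P1-ww. In pericarp their means differed little between the alleles or were very low under both. The rule worked on CPM, the count of a gene divided by all gene counts of its library and multiplied by 1000000. A gene was taken when its lowest P1-rr silk library held at least 1.5 times the CPM of its highest P1-ww silk library and its P1-rr silk mean was 5 CPM or more. In pericarp, the ratio of the P1-rr to the P1-ww mean had to lie between 0.67 and 1.5, or both means had to be below 1 CPM. The silk and pericarp levels of the P1-rr and P1-ww libraries chose the genes, so they are given here as a description and carry no test. The libraries of the inbreds B73 and A632, of a hybrid and of transfected protoplasts took no part in the choice, and those were tested.

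Pericarp color1 (p1) encodes a MYB transcription factor that switches on genes of flavonoid synthesis in maize floral organs. Red phlobaphene pigments in the pericarp and cob, and C-glycosyl flavones such as maysin in the silk, are its best known products. P1-rr is an allele that gives red pericarp and red cob, and P1-ww one that leaves both without this pigment. Silks are the stigmas and styles of the ear, and pericarp is the maternal outer wall of the kernel.

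RNA was sequenced from 9 groups of 3 libraries each. P1-rr and P1-ww plants, both labelled as the inbred A619, gave unfertilized silks (0 days after pollination) and pericarp at 14 days after pollination, the latter labelled as kernels in the tissue field. Unfertilized silks also came from the inbreds B73 and A632 and from their F1 hybrid. Protoplasts, cells freed of their walls, came from the second leaf of B73 x A632 F1 seedlings grown in the dark for 12 days and were transfected by electroporation with a vector that drives P1 from the constitutive 35S promoter (35S:P1) or with the vector lacking it. Both protoplast groups are labelled 18 hours after transformation. Each protoplast replicate pooled 12 seedlings, and the labels do not say how the P1-rr and P1-ww stocks were made or how alike they are outside p1. The labels' growth text names another hybrid (A632 x Mo17) for the silks. The counts bear on this: all 67 genes with a mean of 10 CPM or more in B73 silk and below 0.1 CPM in A632 silk were above 0.1 CPM in the F1, at a median of 0.540 of the B73 level, and all 57 genes with the opposite pattern were above it too, at a median of 0.429 of the A632 level. None of the 12842 genes below 0.1 CPM in both inbreds reached 10 CPM in the F1.

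The 27 libraries held 18910941 to 54466743 counts, with 20490591 to 41061198 in silk, 18910941 to 25175345 in pericarp and 26120060 to 54466743 in protoplasts. No source used here pairs the count table's identifiers with gene names, so the 235 genes are described by identifier, and neither p1 itself, the flavonoid pathway nor markers of the labelled tissues were looked up. In these bulk samples, fewer cells of a type and less RNA per cell cannot be told apart.

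In silk, the difference between the alleles was moderate for most of the 235 genes. The median ratio of the P1-rr to the P1-ww mean was 2.21. It was below 2 for 71 genes, from 2 to below 4 for 141, from 4 to below 10 for 13 and 10 or more for 10 genes, which include 1 gene with no P1-ww silk count. The silk criteria were met by 444 of the 16116 genes with a P1-rr silk mean of 5 CPM or more, 2.76%, and 209 of the 444 were left out by the pericarp criteria. Among the 235, 79 had a P1-rr silk mean below 10 CPM and 16 had 100 CPM or more. The median level of the 235 genes was 14.7, 16.6 and 13.4 CPM in the P1-rr silk libraries, against 6.18, 6.12 and 6.54 CPM in P1-ww silk.

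The second P1-rr silk library was the highest of its group for 152 of the 235 genes (64.7%), whereas it was the highest for 40.0% of the 16116 genes at 5 CPM or more. The third library was the lowest of the group for 139 of the 235, and the share over all genes was not counted. When the rule was applied without the second library it chose 248 genes, 223 of them among the 235. Without the third it chose 375, among them 234 of the 235.

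**Figure D1:**
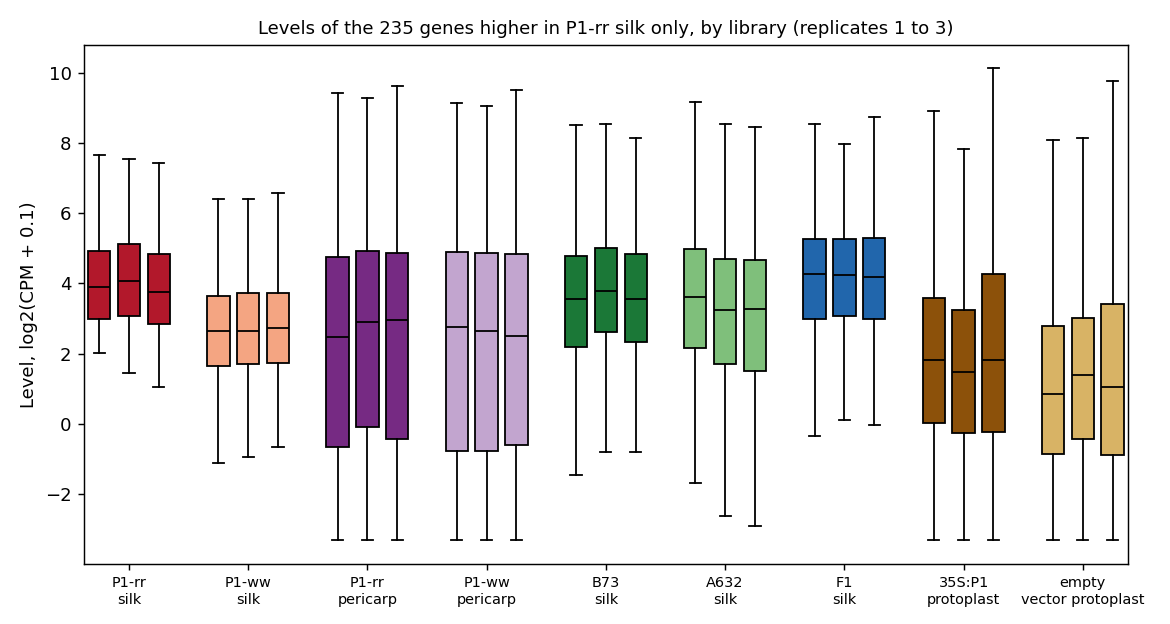
Levels of the 235 genes in each of the 27 RNA-seq libraries, as log2(CPM + 0.1) on the vertical axis; each box spans the middle of the 235 values from the lower to the upper quartile, its line is the median, whiskers reach the last value within 1.5 box lengths, and farther points are not drawn. The P1-rr silk medians (13.4 to 16.6 CPM) stand above those of P1-ww silk (6.12 to 6.54 CPM), which the rule fixed, and the F1 silk medians (18.1 to 19.1 CPM) stand above those of B73 (11.6 to 13.7 CPM) and A632 (9.38 to 12.1 CPM).

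Zm00001d029242 was the member with no count in P1-ww silk. It was at 5.53, 4.85 and 6.41 CPM in P1-rr silk and at 0 in each P1-ww silk library. With 441 counts against 0, and 3 counts over the group taken as the floor, P1-rr silk was at least 125-fold higher. The next identifier, Zm00001d029243, was at 11.8, 14.1 and 11.4 CPM in P1-rr silk and at 0, 0.0464 and 0.0488 CPM in P1-ww silk, 972 counts against 2, a ratio of 413 with a 95% exact interval of 114 to 3416 for counting error alone. Both genes were read in every B73, A632 and F1 silk library. Zm00001d029242 averaged 1.90 CPM in B73, 2.61 CPM in A632 and 2.84 CPM in the F1, and Zm00001d029243 averaged 8.77 ± 1.75, 19.9 ± 0.914 and 12.1 ± 1.11 CPM (SD, n = 3). P1-ww silk was thus the one silk in which these genes were at or near 0. In P1-rr pericarp Zm00001d029242 averaged 0.227 CPM and Zm00001d029243 0.130 CPM, and in P1-ww pericarp both were at 0. At such levels the rule set no limit on the pericarp ratio. Over the means of the 9 groups, on the log2(CPM + 1) scale, the genes whose pattern was most like that of Zm00001d029242 were Zm00001d029243 (Pearson r = 0.924) and Zm00001d048285 (r = 0.917), given as a description over groups that share tissues. Zm00001d048285 is not a member and was not near 0 in P1-ww silk. It averaged 24.0 CPM in P1-rr silk, 17.8 CPM in P1-ww silk, and 16.1 and 15.6 CPM in P1-rr and P1-ww pericarp.

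Zm00001d029195 had the opposite pattern across silks. It was at 345, 296 and 358 CPM in P1-rr silk and at 1.90, 1.90 and 1.76 CPM in P1-ww silk, a ratio of 179.7. B73 silk averaged 1.43 ± 0.691, A632 silk 5.43 ± 1.52 and F1 silk 4.77 ± 1.14 CPM (SD, n = 3). P1-rr silk was here the silk that stood apart, and both pericarp means were below 1 CPM.

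The 2 genes with the highest P1-rr silk CPM, a scale that takes no account of transcript length, differed in where else they were read. Zm00001d045875 was at 1549, 2408 and 1483 CPM in P1-rr silk against 619, 702 and 987 CPM in P1-ww silk. Its pericarp means were 3.44 and 3.07 CPM, and no protoplast library passed 0.0255 CPM, so among these groups it was read mainly in silk. Zm00001d028750 was at 1372, 1884 and 895 CPM in P1-rr silk and at 254, 219 and 318 CPM in P1-ww silk. Unlike Zm00001d045875, it was read in all tissues: its means were 273 CPM in P1-rr pericarp, 253 CPM in P1-ww pericarp, 415 CPM in 35S:P1 protoplasts and 479 CPM in empty-vector protoplasts.

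The members nearest to the threshold were Zm00001d028574 and Zm00001d031212, whose lowest P1-rr silk library was 1.50 times the highest P1-ww one. Zm00001d028574 was at 129, 152 and 112 CPM against 68.4, 50.4 and 74.3 CPM, and Zm00001d031212 at 44.9, 55.4 and 50.2 CPM against 20.2, 27.1 and 29.9 CPM. Just outside, at 1.4993 and 1.4987, lay Zm00001d019701 (12.7, 11.05 and 11.9 CPM against 5.57, 6.44 and 7.37 CPM) and Zm00001d006868 (22.0, 22.3 and 20.8 CPM against 13.7, 13.9 and 13.2 CPM). The genes on either side of the threshold had groups that did not overlap and nearly the same separation.

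In pericarp, the 235 genes fell into a class of 68 with both means below 1 CPM and a class of 167 with a mean of 1 CPM or more under at least 1 allele. In the first class the rule set no limit on the ratio. The rule allowed ratios up to 1.5 in the second class, and 109 of the 167 had the higher mean in P1-rr pericarp and 58 in P1-ww pericarp, with a median ratio of 1.10. For 25 of the 167 the pericarp libraries of the alleles did not overlap; among all genes with a P1-rr silk mean of 5 CPM or more and pericarp levels in the same limits, this held for 26.7%. The pericarp ratio was part of the rule, so nothing is read from that count. The first class had a median of 10.6 CPM in P1-rr silk and 3.31 CPM in P1-ww silk. The second had medians of 18.2 and 8.15 CPM in silk and 19.1 and 17.5 CPM in pericarp.

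For 105 of the 235 genes the P1-ww pericarp mean was above the P1-ww silk mean, and for 77 the P1-rr pericarp mean was above the P1-rr silk mean. The highest pericarp levels were those of Zm00001d033623 and Zm00001d003504. Zm00001d033623 was at 684, 578 and 794 CPM in P1-rr pericarp and 566, 491 and 732 CPM in P1-ww pericarp, ranges that overlap, and at 202, 167 and 159.8 CPM against 70.7, 82.3 and 63.9 CPM in silk. Zm00001d003504 was at 479, 451 and 523 CPM in P1-rr pericarp and at 327, 370.1 and 340.1 CPM in P1-ww pericarp. Its pericarp libraries did not overlap, though their ratio was inside the limits of the rule, and in silk it was at 34.3, 25.3 and 26.6 CPM against 12.9, 10.8 and 9.52 CPM.

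Silks of B73, A632 and their F1 carry no P1-rr or P1-ww label, and their levels were compared with the range between the alleles. The median level of the 235 genes was 12.4 CPM in B73 silk, 10.7 CPM in A632 silk and 19.1 CPM in F1 silk, beside 14.7 CPM in P1-rr and 6.29 CPM in P1-ww silk. In B73, 90 genes had a mean at or above their lowest P1-rr silk library, 77 at or below their highest P1-ww silk library and 68 between. The numbers were 72, 89 and 74 in A632 and 135, 35 and 65 in the F1. All 3 silks were at or above the lowest P1-rr library for 48 genes, and all 3 at or below the highest P1-ww library for 28. P1-ww silk had the lowest mean of the 5 silks for 133 genes, A632 for 64, B73 for 36 and the F1 for 2. P1-rr silk had the highest mean of all 9 groups for 61 genes and F1 silk for 57. The rule kept P1-rr silk from being the lowest and P1-ww silk from being the highest. These ranks of the P1-rr and P1-ww silks are therefore a description only.

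The F1 was higher than the average of its parents' log2 levels for a majority of the members tested. With edgeR's quasi-likelihood test on the 9 silk libraries of B73, A632 and the F1 (n = 3 each, Benjamini-Hochberg adjustment over 23757 genes, adjusted p under 0.05), 125 of the 233 members tested were higher in the F1 than the mid-parent (the average of the log2 levels of B73 and A632), and 11 were lower. That is 53.6% and 4.72% of the members, against 21.6% and 15.5% of all genes tested. The members had a P1-rr silk mean of 5 CPM or more, and the genes tested were not matched to them in level. Where the parents differ, the average of their log2 levels lies below that of their CPM. An F1 level between the parents can then be called higher. The median log2 difference was 0.65 over the members and 0.03 over all genes tested, and 197 members had a positive and 36 a negative difference. Among the members called, the median was 1.05 for the higher and -0.67 for the lower ones. With a difference of 2-fold or more also required, 65 members were higher and 1 was lower, against 9.92% and 3.65% of all genes.

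The F1 often passed both parents and not their mean alone. Every F1 library was above every library of both parents for 77 of the 233 members (33.0%), against 12.0% of all genes tested, and below every one for 4 (1.72%), against 8.79%. The F1 mean was above both parent means for 145 of the 235 genes (61.7%, against 30.2% of all genes tested), between them for 76 and below both for 14. It was 2-fold or more above both for 32. Of the 125 genes called higher in the F1, 47 were also called higher in B73 than in A632, 25 lower, and 53 were not called between the parents. Apart from F1 means above both parents, the shares over all genes tested were not counted for these splits by mean and by parental call. Nothing particular to the members is read from them. By pericarp class, 34 of 66 genes low in pericarp (51.5%) and 91 of 167 read in pericarp (54.5%) were called higher. With an F1 library left out, fewer genes were called overall. Without the first, 79 members were higher and 7 lower, against 14.6% and 7.46% of all genes tested; without the second, 86 and 9, against 14.7% and 8.82%; and without the third, 95 and 8, against 15.9% and 9.54%.

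**Figure D2:**
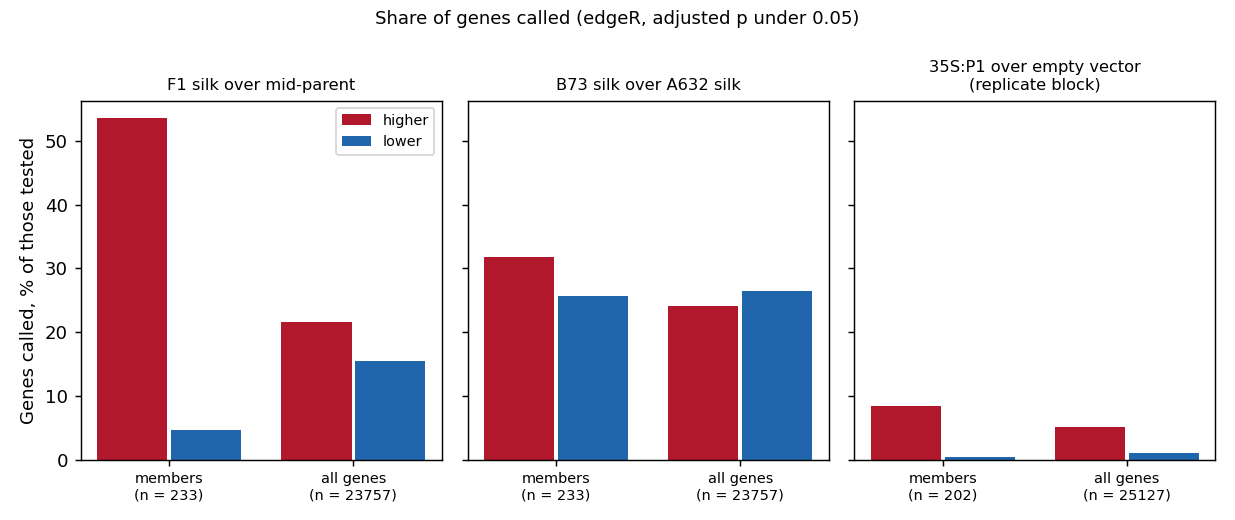
Share of genes called higher (red) or lower (blue) at an edgeR adjusted p under 0.05, in percent of those tested on the vertical axis, for the members and for all genes tested in 3 comparisons. In the F1 comparison 53.6% of members and 21.6% of all genes were called higher, whereas the shares lie closer together between B73 and A632 (31.8% and 24.1% higher) and in protoplasts with the replicate block (8.42% and 5.19% higher).

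Among members whose F1 libraries all stood above both parents, Zm00001d044580 and Zm00001d045875 had the largest fitted differences. Zm00001d044580 was at 242, 252 and 192 CPM in the F1, at 29.1, 65.8 and 57.5 CPM in B73 and at 38.4, 2.87 and 1.19 CPM in A632. Its log2 difference from the mid-parent was 3.06 ± 0.79 (SE, edgeR adjusted p = 0.0160). Zm00001d045875 was at 3348, 3349 and 2207 CPM in the F1, at 367, 937 and 693 CPM in B73 and at 577, 49.1 and 23.2 CPM in A632, a log2 difference of 2.94 ± 0.81 (SE, edgeR adjusted p = 0.0205). In both genes the first A632 library was more than 10-fold above the others of its group. Without it the log2 differences were 4.46 and 4.23, and both calls held. The call for Zm00001d045875 was lost without the first F1 library (2.84) or the second (2.85), and that for Zm00001d044580 without the second (2.99).

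A difference with less spread was that of Zm00001d028750, at 429, 482 and 498 CPM in the F1, 52.5, 105 and 68.2 CPM in B73 and 126, 200.4 and 219 CPM in A632. All F1 libraries were above all parent libraries, and all were below the lowest P1-rr silk library of 895 CPM. The log2 difference from the mid-parent was 1.97 ± 0.21 (SE, edgeR adjusted p = 0.000352).

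The 11 members lower in the F1 included Zm00001d011315 and Zm00001d028651, whose F1 libraries were all below both parents. Zm00001d011315 was at 0.660, 0.731 and 0.871 CPM in the F1 against 4.34, 2.66 and 3.84 CPM in B73 and 4.77, 4.13 and 10.1 CPM in A632, a log2 difference of -2.71 ± 0.37 (SE, edgeR adjusted p = 0.00102). Its P1-rr silk libraries were at 9.85, 9.49 and 8.22 CPM and its P1-ww silk libraries at 3.71, 5.29 and 4.49 CPM, near the parents' level. Zm00001d028651 was at 117, 133 and 139 CPM in the F1, 202, 371 and 216 CPM in B73 and 215, 236 and 214 CPM in A632, a log2 difference of -0.93 ± 0.17 (SE, edgeR adjusted p = 0.00400). Its P1-rr silk libraries, at 7.90, 11.9 and 8.49 CPM, lay far below all of these, and its P1-ww silk libraries, at 0.363, 0.185 and 0.0488 CPM, lower still.

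**Figure D3:**
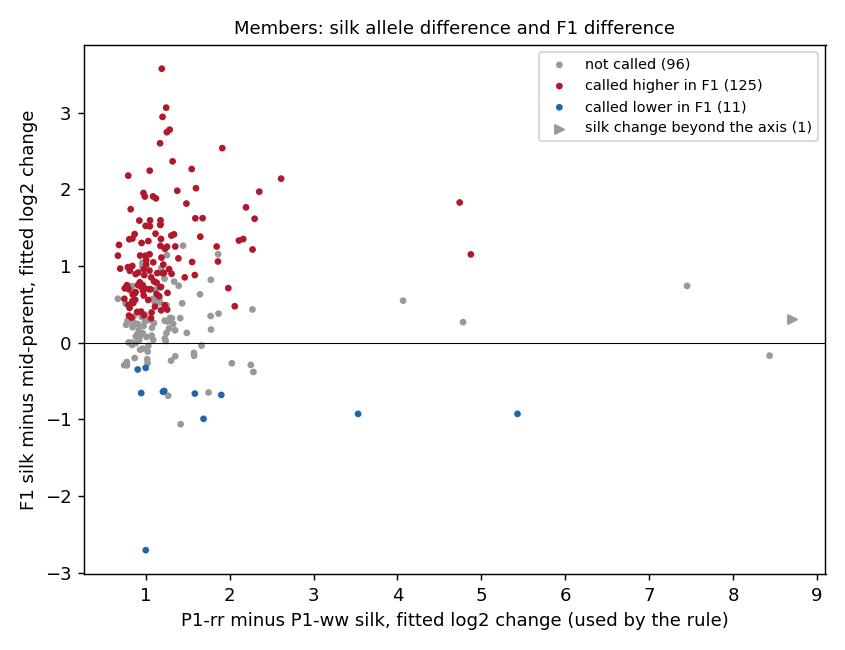
Members by the fitted log2 difference of P1-rr over P1-ww silk (horizontal axis, used to choose the genes) and of F1 silk over the mid-parent (vertical axis), with each of the 233 tested members as a point coloured by its edgeR call at an adjusted p under 0.05. Most of the 125 red points lie at silk differences below 3, and the few members with the widest silk difference spread around 0 in the F1 comparison. The rule cut the horizontal values from below, so no relation between the axes is read from them; 1 member whose fitted silk difference lies beyond the axis is drawn at the right edge.

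Of the 10 members with a silk ratio of 10 or more, Zm00001d023399 could not be tested, since it had no count in any B73, A632 or F1 silk library. It was at 13.1, 8.42 and 9.45 CPM in P1-rr silk and at 0.121, 0.0464 and 0.146 CPM in P1-ww silk. The other member not tested, Zm00001d025930, averaged 0.0344 CPM in F1 silk. Both were singled out after their values were seen.

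Between B73 and A632, members were called in both directions at shares near those of all genes. The same edgeR fit called 74 of 233 members higher in B73 (31.8%) and 60 lower (25.8%), against 24.1% and 26.4% of all genes tested. Every B73 library was above every A632 library for 80 members (34.3%, against 33.6%) and below for 49 (21.0%, against 23.1%). The median log2 difference was 0.11 over the members and -0.03 over all genes. In the class low in pericarp 17 of 66 were higher and 27 lower in B73, and in the class read in pericarp 57 of 167 were higher and 33 lower. That difference between the classes was not tested.

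Some members were read in one inbred and barely in the other. Zm00001d029241 was at 126, 99.1 and 118 CPM in B73 silk and at 0.596, 0.513 and 0.595 CPM in A632 silk, a log2 difference of 7.51 ± 0.18 (SE, edgeR adjusted p = 4.51e-08). The F1 was between them at 31.0, 31.1 and 26.3 CPM, P1-rr silk at 15.9, 7.97 and 8.56 CPM, and P1-ww silk, at 0.242, 0.417 and 0.537 CPM, was near the level of A632. Although between its parents, the F1 was called higher than the mid-parent for Zm00001d029241 (log2 difference 1.83 ± 0.12, SE, edgeR adjusted p = 3.19e-05). Zm00001d002972 was at 6.42, 9.44 and 5.57 CPM in B73 and at 0.119, 0.0905 and 0.0313 CPM in A632, a log2 difference of 6.26 ± 0.34 (SE, edgeR adjusted p = 1.85e-06). Its F1 libraries, at 8.69, 9.42 and 10.3 CPM, overlapped those of B73. For this gene P1-ww silk, at 5.85, 5.52 and 6.64 CPM, was near the level of B73.

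B73 silk was lower than A632 silk for Zm00001d043171, which was barely read in B73, and for Zm00001d033623, which was read in both inbreds. Zm00001d043171 was at 0.117, 0.467 and 0.0334 CPM in B73 and at 9.68, 18.4 and 38.5 CPM in A632, a log2 difference of -6.82 ± 0.73 (SE, edgeR adjusted p = 9.44e-05). Zm00001d033623 was at 8.15, 9.20 and 9.08 CPM in B73 and at 38.6, 38.2 and 251 CPM in A632, a log2 difference of -3.78 ± 0.74 (SE, edgeR adjusted p = 0.00262). The third A632 library stood apart from the others for Zm00001d033623, and without it the log2 difference was -2.23 and the call held. B73 silk was lower than every P1-ww silk library for both genes.

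**Figure D4:**
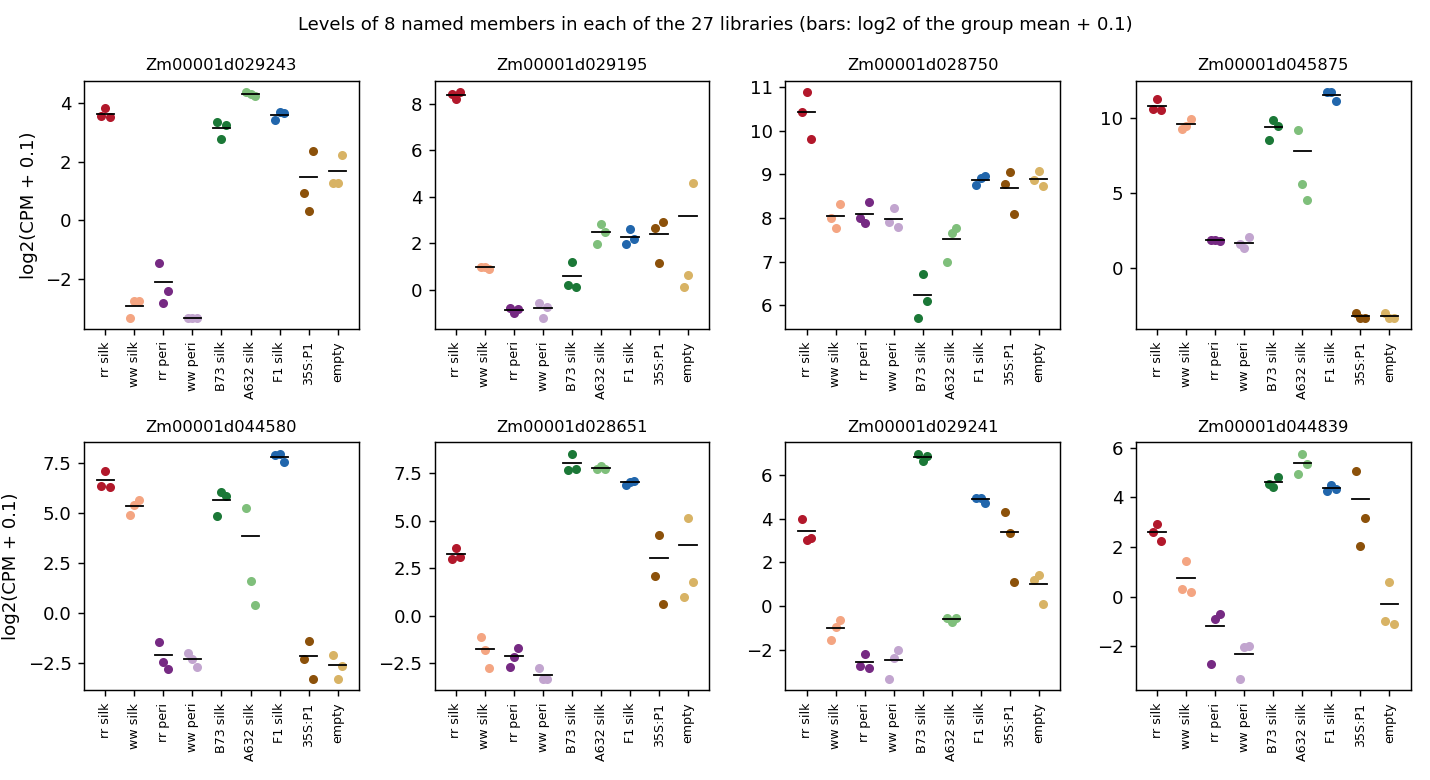
Levels of 8 members in each of the 27 libraries, as log2(CPM + 0.1) on vertical axes that differ between panels; points are libraries in replicate order and the bar is the log2 of the group mean plus 0.1. P1-ww silk alone is near 0 among silks for Zm00001d029243, P1-rr silk alone is high for Zm00001d029195, and the B73 and A632 groups stand far apart for Zm00001d029241 (99.1 to 126 CPM and 0.513 to 0.596 CPM).

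In protoplasts, edgeR's quasi-likelihood test on the 6 libraries, without regard to replicate numbers, called no member when 35S:P1 was compared with the empty vector, while other fits called some. Of the 235 genes, 202 passed the filter on low counts. The test called 0 of them higher and 0 lower, against 0.139% and 0.0% of the 25127 genes tested, and the smallest adjusted p of a member was 0.107. At an unadjusted p under 0.05, 21 members were higher and 2 lower, against 5.57% and 0.86% of all genes. DESeq2's Wald test called 9 of 220 members higher and 0 lower, against 2.22% and 0.0313%.

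Libraries with the same replicate number deviated together in protoplasts, and with the number as a block edgeR called 17 of the 202 members higher with 35S:P1 (8.42%) and 1 lower (0.495%), against 5.19% and 1.08% of all genes tested. All 35S:P1 libraries were above all empty-vector libraries for 30 members (14.9%, against 8.59% of genes tested) and below for 2 (0.99%, against 1.9%). The median log2 difference was 0.25 over the members and -0.05 over all genes. The blocked count depended on single libraries: it was 3 without the first 35S:P1 library and 2 without the first empty-vector library, against 1.03% and 0.741% of all genes tested. Without the second library it was 42 for either group, against 10.0% and 10.1% of all genes, and without the third it was 11 for either, against 3.48% and 3.45%. With all 27 libraries in an unblocked fit, 28 members were higher and 6 lower, against 5.96% and 2.28% of all genes.

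Zm00001d044839 and Zm00001d044021 had the largest blocked differences among members whose groups did not overlap. Zm00001d044839 was at 32.9, 3.98 and 9.00 CPM with 35S:P1 and at 0.408, 1.39 and 0.366 CPM with the empty vector, a blocked log2 difference of 3.95 ± 0.78 (SE, edgeR adjusted p = 0.0185; 0.217 without the block). Zm00001d044021 was at 85.0, 14.7 and 184 CPM against 10.2, 4.07 and 10.5 CPM, a blocked log2 difference of 2.87 ± 0.38 (SE, edgeR adjusted p = 0.00275; 0.250 without the block). The blocked call for Zm00001d044839 was lost without the first 35S:P1 library (log2 difference 2.89) or the first empty-vector library (2.86), and the difference was 5.29 without the second library of either group. That for Zm00001d044021 was lost without the first empty-vector library (2.92). In F1 silk both were lower than the mid-parent, by log2 differences of -0.68 (edgeR adjusted p = 0.0174) and -0.63 (edgeR adjusted p = 0.00786). The former call was lost without the first F1 library (-0.64) or the third (-0.66). Of the 17 members called higher in the blocked fit, 10 were called higher in the F1 than the mid-parent. Over all members tested there it was 125 of 233. How many of the 17 were called lower in the F1 was not counted.

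Further named members were called in the blocked fit. Zm00001d003504, the pericarp gene above, was at 894, 1419 and 284 CPM with 35S:P1 against 335, 599 and 121 CPM, and although the groups overlap, each numbered pair was higher with 35S:P1 (blocked log2 difference 1.14 ± 0.25, SE, edgeR adjusted p = 0.0310; 1.00 without the block). Zm00001d029241 was at 19.5, 10.0 and 2.04 CPM against 2.19, 2.59 and 0.987 CPM (blocked log2 difference 1.93 ± 0.40, SE, edgeR adjusted p = 0.0244; 0.645 without the block). The member called lower was Zm00001d009494, at 25.3, 26.97 and 86.5 CPM with 35S:P1 and 71.1, 31.6 and 239 CPM with the empty vector (blocked log2 difference -1.24 ± 0.31, SE, edgeR adjusted p = 0.0471; 0.922 without the block). These 3 blocked calls also depended on single libraries. Those for Zm00001d003504 and Zm00001d009494 were lost without the first or the third library of either group, at log2 differences of 1.14 to 1.16 and of -1.05 to -0.94, and the latter was -1.71 without either second library. That for Zm00001d029241 was lost without the first library of either group (1.43 and 1.42). All protoplast levels of Zm00001d009494 were above its P1-rr silk libraries, at 4.04, 7.76 and 4.03 CPM.

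The members were spread over most of the identifier range, with a gathering in 2 adjoining blocks. The numbers in the identifiers were cut into 54 blocks of 1000 consecutive numbers. Blocks 28 and 29 (identifiers beginning Zm00001d028 and Zm00001d029) held 14 and 15 members, 29 of 235 (12.3%), and 4.43% of the genes with 5 CPM or more in P1-rr silk. In these blocks 4.06% of genes at that level were members, against 1.34% elsewhere. Singly, the shares were 3.58% in block 28 and 4.64% in block 29, and block 44, with 11 members, was close to block 28 at 3.44%. Genes that met the silk criteria but not the pericarp criteria had 24 of 209 (11.5%) in blocks 28 and 29. Genes chosen by the mirror rule, lower in P1-rr silk only, had 21 of 240 (8.75%) there. No gene position on the build of the count table was at hand, so chromosomes are not given.

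**Figure D5:**
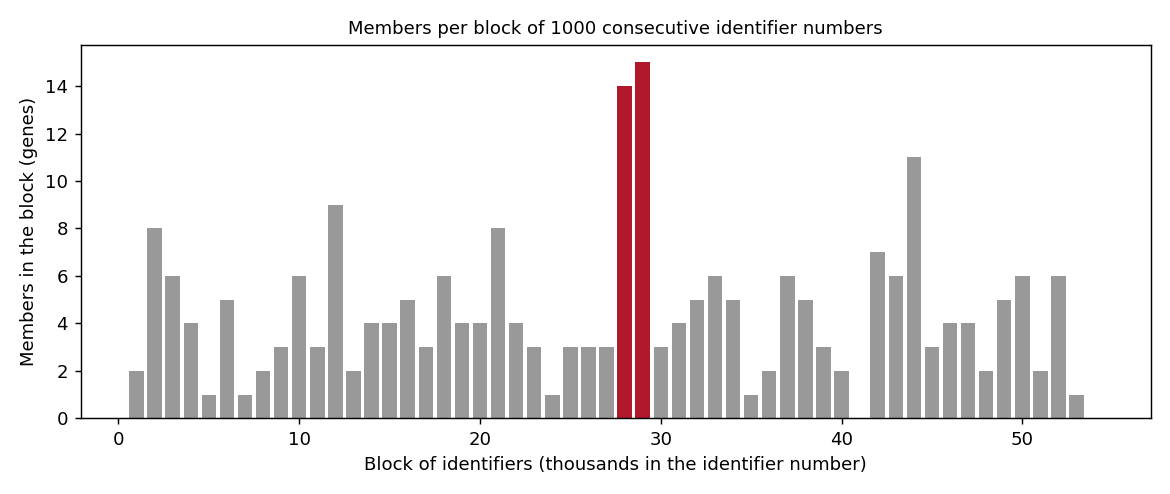
Number of members (vertical axis, genes) in each block of 1000 consecutive identifier numbers (horizontal axis, block number), with blocks 28 and 29 in red. These 2 blocks hold 14 and 15 members, and no other block holds more than 11.

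The widest silk differences lay mostly in those blocks: 6 of the 10 members with a silk ratio of 10 or more were there. There were 6 runs of consecutive identifiers, with 14 members in all, and 2 of these runs held 3 genes, Zm00001d028749 to Zm00001d028751 and Zm00001d029241 to Zm00001d029243. In the first, Zm00001d028749 averaged 5.08 CPM in P1-rr and 1.15 CPM in P1-ww silk, and Zm00001d028751 averaged 19.02 and 1.09 CPM, beside Zm00001d028750 above. In the second, all 3 genes were below 1 CPM in each P1-ww silk and each pericarp library. Their other silks differed: Zm00001d029241 was high in B73 and low in A632, whereas Zm00001d029243 was lower in B73 than in A632 (log2 difference -1.31 ± 0.17, SE, edgeR adjusted p = 0.000250).

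In the F1 comparison, 8 of the 29 members in blocks 28 and 29 (27.6%) were called higher in the F1 and 3 lower, against 22.7% and 14.9% of all genes tested in these blocks, while outside them 117 of 204 (57.4%) were called higher and 8 lower. Over all blocks, 21.6% of the genes tested were called higher and 15.5% lower, and the share outside blocks 28 and 29 alone was not counted. The difference between the blocks was not tested. Zm00001d029031, which had the second-highest P1-rr silk CPM of block 29, was at 69.0, 62.6 and 76.5 CPM in P1-rr and 22.4, 26.1 and 19.3 CPM in P1-ww silk. It averaged 63.7 CPM in B73, 70.4 CPM in A632 and 43.5 CPM in the F1 (log2 difference -0.67 ± 0.14, SE, edgeR adjusted p = 0.00757). In block 44, Zm00001d044060 was at 131, 147 and 142 CPM against 36.5, 36.6 and 39.3 CPM, and averaged 101 CPM in the F1, with no call against the mid-parent (log2 difference 0.38 ± 0.15, SE, edgeR adjusted p = 0.0819).

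Beside the members stand the genes that met the silk criteria but not the pericarp criteria, whichever allele had the higher pericarp mean. They had similar shares in the F1: 116 of 202 (57.4%) were called higher and 12 lower. The mirror genes went the other way, with 27 of 227 (11.9%) higher and 98 (43.2%) lower. In protoplasts with the replicate block, 51 of 201 genes that met the silk but not the pericarp criteria (25.4%) were called higher, against 17 of 202 members. The unblocked edgeR fit on the 6 libraries called 13 of the 201 and 0 of the 202. For the mirror genes the blocked counts were 16 of 212 higher (7.55%) and 9 lower (4.25%). The blocked shares were 8.42% and 0.495% for the members, and 5.19% and 1.08% for all genes tested. These lists were set side by side as counts, and the differences between them were not tested.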

How the data were processed

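RNA-seq counts per gene for 27 libraries came from 1 table deposited by the authors, as raw counts with no normalization. Per the submitters' processing notes, bcl2fastq 2.20.0, FastQC, Trimmomatic, Bowtie2 2.3.4.1 and HISAT2 2.0.4 were used with the genome build B73 RefGen_v4; no source used here gives the counting tool or annotation. Per the labels' protocols, libraries were made with the TruSeq v2 kit, which does not mark strand, and read single-end, so overlapping and antisense genes cannot be told apart, and near-identical copies may share reads. All genotypes were set against the B73 genome.

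CPM was computed from the column totals. The tests used edgeR 4.0.16 in R 4.3.3 (TMM scaling, filterByExpr, quasi-likelihood, two-sided, Benjamini-Hochberg), with a fit of 6 protoplast libraries and a fit of 9 silk libraries; the P1-rr and P1-ww libraries were kept out of both because they chose the members. DESeq2 1.42.0, other scalings, no filter, wider fits and leaving out each library were alternatives. The unblocked edgeR fits were tried on simulated counts without replicate pairing, which does not bear on the blocked fits. Per the labels, silk and pericarp replicates are biological and protoplast replicates are pools of seedlings; p-values measure the spread between these samples; replicates differed by more than counting noise (chi-square per degree of freedom 7.4 to 666). In protoplasts, deviations of same-numbered libraries correlated at 0.543 to 0.815 over genes and others at -0.706 to 0.294; the pairing comes from the data, not from a label. The members and lists were chosen with earlier results of these data known. Genes were named by rules: the 2 most extreme per direction in the silk ratio, in the P1-rr silk and pericarp levels and in each test, 2 on each side of the threshold, and 2 in each identifier block with 10 or more members, a limit raised after the data were seen from 5; members of runs were named afterwards. None of the 39005 identifiers matched the reference table at hand, so names, sequences, markers and the 16 peak lists of the series, which give coordinates only, were not used here.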

Additional observations from a re-analysis of the deposited data

How the results depend on the processing

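In the F1 comparison the direction held under every alternative run: the members called higher ranged from 79 to 146 and those called lower from 7 to 12 when single libraries were left out, against 14.6% to 24.6% and 7.46% to 17.1% of all genes, and 65 and 1 were past 2-fold. Between B73 and A632 the ranges were 50 to 88 higher and 52 to 66 lower, against 19.7% to 24.9% and 22.2% to 24.9% of all genes, with 46 and 33 past 2-fold, against 13.1% and 12.4%. With the replicate block, although the silk numbers do not pair the libraries (same-number correlations -0.276 to 0.124), the F1 counts were 122 and 11. Of all genes tested, 20.1% and 13.5% were called higher and lower in that fit. The B73 counts were 68 and 60, against 23.2% and 24.9% of all genes. In protoplasts the count of members higher was 0 in the unblocked edgeR fits on 6 libraries and in each with a library left out. It was 9 with DESeq2, 17 with the replicate block, 28 with all 27 libraries in the fit, and 2 to 42 with the block and a library left out (3, 42 and 11 without 35S:P1 libraries 1 to 3, and 2, 42 and 11 without empty-vector libraries 1 to 3). The count of members lower was 0 in the unblocked edgeR fits on protoplast libraries alone and with DESeq2, 1 with the block, 6 with all 27 libraries and 0 to 11 with the block and a library left out. The 11 were reached without the second 35S:P1 or the second empty-vector library, where 6.3% and 6.11% of all genes were called lower. The cause was not tested. Members numbered 51 with a ratio of 2 in the rule, 156 with a mean of 10 CPM, 186 with TMM-scaled CPM (170 shared with the 235) and 248 to 375 without single libraries, and 48.0% to 56.8% of the tested ones were higher in the F1 under these rules. TMM scaling moved the median log2 difference of all genes in protoplasts from 0.10 to -0.11 and that of the members from 0.30 to 0.16; between B73 and A632 it moved from 0.11 to -0.02, and for the members from 0.26 to 0.13. In protoplasts, 33 members were below the edgeR filter on low counts; without the filter 233 members were tested and 0 called.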
